A study of Homo sapiens with 9 samples.

Results

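The protocadherins and the FAT, Dachsous and CELSR proteins are large cadherins that lie outside the classical cadherin group. Their genes were taken from the OVCAR4 count table as the protein-coding rows whose symbol begins with PCDH, or is FAT1 to FAT4, DCHS1, DCHS2 or CELSR1 to CELSR3, leaving out chromosome Y. The rule found 74 genes among 58735 rows, of which 19951 are protein-coding. They comprise 15 alpha, 16 beta and 22 gamma protocadherins, 4 delta-1 and 5 delta-2 protocadherins, 3 other protocadherins, 4 FAT genes, 2 Dachsous genes and 3 CELSR genes. Of the 74, 52 passed the filter on low counts and are called expressed here, and 22 did not.

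OVCAR4 is an established human ovarian carcinoma line of serous type. Cells were transduced with a scrambled control shRNA (scr control) or with either of 2 hairpins against MPZL3, a predicted cell adhesion molecule with an immunoglobulin-like domain, and every group was selected with puromycin for 3 days. Each group, scr control, shMPZL3 #1 and shMPZL3 #2, holds 3 libraries described as biological replicates of transduced cell pools, so n = 3 per group unless another number is given and ± marks the SD. Both hairpin comparisons use the same 3 scr control libraries. The comparisons address which of these adhesion genes differ when MPZL3 is reduced.

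Protocadherins are mostly known from neurons. The alpha, beta and gamma genes stand in tandem on chromosome 5, where each alpha or gamma transcript joins its own large first exon, which encodes the extracellular cadherin repeats, to constant exons shared by the whole cluster. Each beta gene is a single coding exon with no shared part. Promoters of the clusters are chosen through the insulator protein CTCF and cohesin, and many are kept silent by DNA methylation. The clustered proteins bind copies of themselves on neighbouring cells. The delta protocadherins are encoded by separate genes and signal through protein phosphatase 1 or the WAVE actin complex. FAT4 and DCHS1 bind each other between cells and feed into planar polarity and Hippo signalling, while CELSR proteins, the vertebrate Flamingo homologues, belong to the core planar polarity complex.

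Total counts ran from 15040102 to 21757321 in the scr control libraries, from 20146466 to 22804445 with shMPZL3 #1 and from 20307969 to 27835841 with shMPZL3 #2. The targeted gene MPZL3 averaged 578 ± 38.5 normalized counts (counts scaled to a common library size) under the scrambled shRNA, 128 ± 12.9 under shMPZL3 #1 and 312 ± 59.5 under shMPZL3 #2. The fall was therefore in the labelled direction with each hairpin and deeper with shMPZL3 #1. Of 8 ovarian serous and epithelial markers 7 passed the filter, with a summed level of 4941 to 6286 CPM, counts scaled by library total. Summed fibroblast markers (5 genes, 1 passed, DCN at 0 counts throughout) were at 3.63 to 5.83 CPM in scr control libraries, 5.66 to 9.63 under shMPZL3 #1 and 9.70 to 15.9 under shMPZL3 #2. Summed neuronal markers (5 genes, 3 passed, STMN2 at 0 throughout) were at 5.05 to 5.29, 4.72 to 7.50 and 9.76 to 12.4 CPM. Endothelial markers (3 genes, all passed) were at 8.09 to 9.87, 7.31 to 8.80 and 12.4 to 16.1 CPM, and leukocyte markers (4 genes, 2 passed) at 0.712 to 1.06, 1.61 to 3.14 and 1.63 to 3.31 CPM. The part of these marker levels in the results that follow was not tested. In bulk RNA, fewer cells of a kind and less RNA per cell cannot be told apart.

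Because 53 of the 74 genes stand in the 3 clusters, the letters that identify their transcripts come first. All 15 alpha genes carry the same 59-base constant exon (GENCODE 29, chr5:140978949-140979007, plus strand), and all 22 gamma genes carry another 59-base exon at the corresponding place (chr5:141494807-141494865, plus strand). They are shown because a read that lies wholly within them cannot be given to any gene of the cluster. Longer constant exons are not shown. Each cluster has an 89-base exon shared by all its genes. A last exon of 2718 bases is carried by 14 of 15 alpha genes, and 21 of 22 gamma genes carry a last exon of 2033 bases. What an alpha or gamma gene has to itself is its first exon.
alpha constant exon: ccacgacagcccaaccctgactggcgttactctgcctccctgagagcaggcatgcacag
gamma constant exon: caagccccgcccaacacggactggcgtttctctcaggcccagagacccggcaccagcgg

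Each first exon has a promoter of its own. The RefSeq promoter table (GRCh38.p14) held 62 of the 74 genes. The promoters of 7 clustered genes that were higher after MPZL3 knockdown are shown from 100 bases before to 50 bases after the annotated start, all on the plus strand, so that the start is the base after the first 100. PCDHB11, which also rose, had no entry. Capitals mark every CGCT on the gene's own strand. These letters are the core of the conserved element of clustered protocadherin promoters, but a marked CGCT need not be that element. In PCDHB8 the only marked CGCT lies 3 bases after the start.
PCDHAC1 (chr5:140926199-140926348): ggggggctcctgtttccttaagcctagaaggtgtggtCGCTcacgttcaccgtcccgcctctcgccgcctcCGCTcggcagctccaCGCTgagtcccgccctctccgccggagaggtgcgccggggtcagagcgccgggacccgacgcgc
PCDHAC2 (chr5:140966376-140966525): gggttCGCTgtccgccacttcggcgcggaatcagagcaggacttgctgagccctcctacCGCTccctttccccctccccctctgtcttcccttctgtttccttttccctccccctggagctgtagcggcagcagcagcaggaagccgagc
PCDHB2 (chr5:141094515-141094664): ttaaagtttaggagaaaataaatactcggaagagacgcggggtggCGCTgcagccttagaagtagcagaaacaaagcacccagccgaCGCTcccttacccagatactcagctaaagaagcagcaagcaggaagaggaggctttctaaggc
PCDHB8 (chr5:141177690-141177839): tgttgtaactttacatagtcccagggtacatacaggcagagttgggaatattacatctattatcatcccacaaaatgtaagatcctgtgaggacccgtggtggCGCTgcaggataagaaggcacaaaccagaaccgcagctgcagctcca
PCDHB9 (chr5:141187061-141187210): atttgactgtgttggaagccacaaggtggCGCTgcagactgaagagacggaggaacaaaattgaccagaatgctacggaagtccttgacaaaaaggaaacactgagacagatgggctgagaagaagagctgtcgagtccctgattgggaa
PCDHGB5 (chr5:141397847-141397996): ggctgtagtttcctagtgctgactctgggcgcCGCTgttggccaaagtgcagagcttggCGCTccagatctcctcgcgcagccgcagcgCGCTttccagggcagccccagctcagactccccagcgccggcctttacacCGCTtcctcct
PCDHGC3 (chr5:141475866-141476015): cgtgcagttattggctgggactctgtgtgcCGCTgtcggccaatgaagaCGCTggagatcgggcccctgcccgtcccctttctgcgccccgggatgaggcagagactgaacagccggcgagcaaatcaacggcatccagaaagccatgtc

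CGCT stood within the 100 bases before the start in 44 of the 52 clustered promoters in the table (84.6%), against 28.1% of all 35116 promoters. By cluster the share was 92.3% for alpha, 92.9% for beta and 76.0% for gamma promoters, and it was 38.9% for the 18 promoters of the other genes. Counted on either strand over the whole 300-base window, the shares were 98.1% of the clustered and 70.0% of all promoters. In PCDHB2, PCDHB8 and PCDHB9 the same longer word, GTGGCGCT, holds the CGCT. This word was chosen after the sequences were seen. On either strand it stood in 13 of 14 beta promoters, in 0 of 13 alpha promoters, in 0 of 25 gamma promoters and in 1.15% of all promoters. PCDHGB5 has a second annotated start whose own window from 100 bases before it holds no CGCT. A match is a description of the letters and not a measured site.

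Expression of the 52 genes differed widely in scr control when given as CPM per kilobase of exon that no other gene shares. FAT2 stood highest at 33.9 ± 0.555 CPM per kb, followed by CELSR1 at 32.7 ± 1.12. Their control libraries overlapped, so this order is not resolved. CELSR2 at 11.6 ± 0.346, FAT1 at 10.3 ± 1.04, PCDHGB5 at 7.20 ± 0.198, PCDH1 at 6.53 ± 0.354, FAT3 at 5.20 ± 0.423 and PCDHGC3 at 3.78 ± 0.500 CPM per kb came next. From CELSR1 to PCDHGC3, neighbours in this order had control libraries that did not overlap. From PCDHB2 (2.43 ± 0.503) through PCDH7 (1.97 ± 0.142), PCDHB8 (1.80 ± 0.187) and PCDHB13 (1.48 ± 0.156) to FAT4 (1.41 ± 0.0780), each overlapped the next. FAT4 did not overlap PCDHB14, which followed it. By the deposited gene length, which counts shared exons too, the order changed. CELSR1 (32.7) then stood above FAT2 (32.5), and PCDHGB5 (3.96) below PCDH1 (6.53) and FAT3 (5.20), with PCDHGC3 at 2.26 CPM per kb. The lowest per kb of unshared exon were PCDHAC1 at 0.0369 ± 0.0336 and PCDHAC2 at 0.0192 ± 0.0332 CPM per kb.

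**Figure D1:**
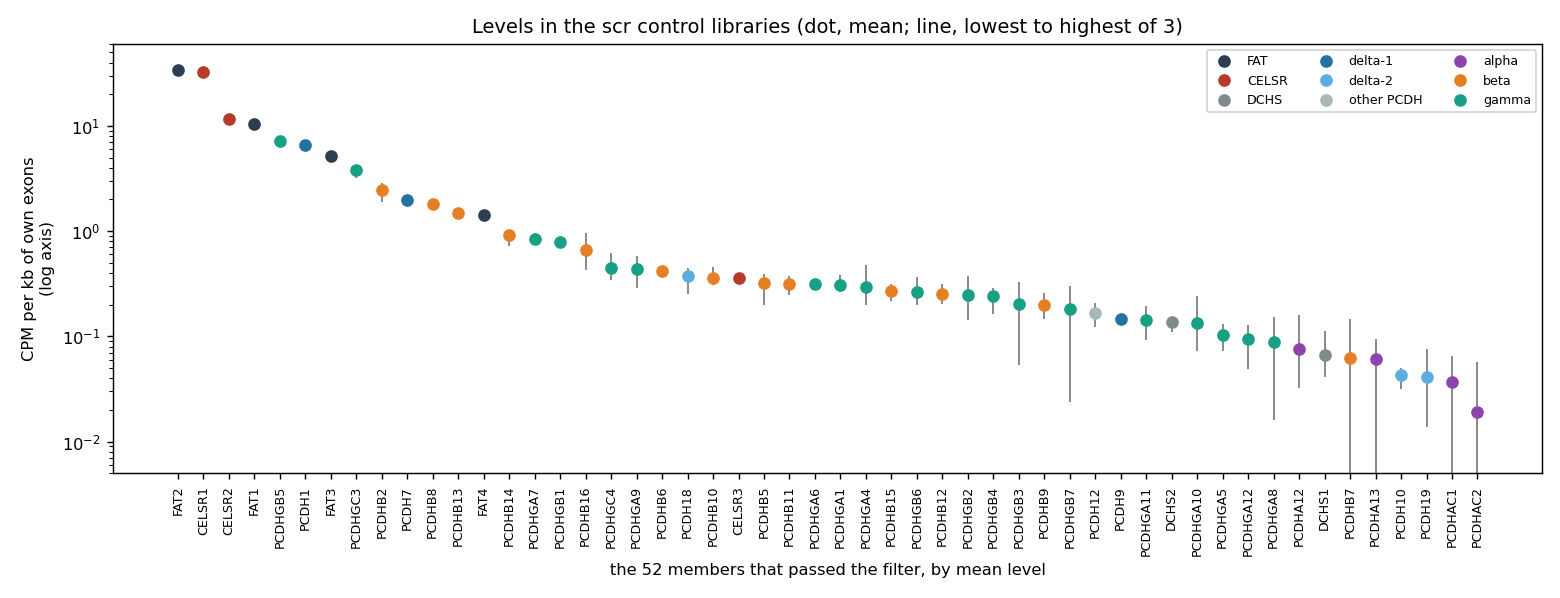
Level in scr control of the 52 genes that passed the filter, on a log axis, in CPM per kb of exon held by no other gene; dots, coloured by subgroup, are means of 3 libraries, lines run from the lowest to the highest library, and a line that reaches the bottom of the axis ends at 0. FAT2 and CELSR1 stand at the top at 33.9 and 32.7, and the alpha genes at the bottom.

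All 4 FAT genes, both Dachsous genes and all 3 CELSR genes passed the filter, as did 19 of 22 gamma, 13 of 16 beta and 4 of 15 alpha genes. Of the delta-1 genes 3 of 4 passed (PCDH11X did not), of the delta-2 genes 3 of 5 (PCDH8 and PCDH17 did not), and of the other protocadherins only PCDH12. Of the 22 that did not pass, 8 totalled no more than 3 counts in the 9 libraries together, and the highest total was 73 counts. Every one of the 74 had at least 1 count in some library. Among the 52, 12 passed with fewer than 2 scr control libraries at the filter's level, among them PCDHAC1, PCDHAC2, PCDHA13, PCDHB7 and PCDH19. Their direction is not counted as support, and counts are also given without these 12.

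Comparing all 6 knockdown libraries with scr control, 10 of the 52 genes rose and 2 fell (edgeR quasi-likelihood test, Benjamini-Hochberg adjusted p under 0.05 over 16928 genes). Over all genes tested 9.36% rose and 6.4% fell. The median log2 fold change of the 52 genes was 0.50, beside 0.015 over all genes. Without the 12 genes that were low in scr control, 8 of 40 rose and 2 fell (median 0.41). Those that rose were PCDHB2, PCDHB8, PCDHB9, PCDHB11, PCDHGB5, PCDHGC3, PCDHAC1, PCDHAC2, PCDH1 and PCDH7, and those that fell were FAT3 and CELSR1. For 11 genes every knockdown library lay above every control library and for 2 below, where 11.8% and 11.0% of all genes did so. The 11 include PCDHAC1, PCDHAC2 and PCDHGA12, which were low in scr control and whose direction is not counted as support. For each of the 12 called genes the exact two-sided permutation test on log2 CPM gave p = 0.0238, the smallest that 6 against 3 libraries allow. The 12 were picked by a test on the same 9 libraries, so this value adds no support of its own. It also treats the libraries of both hairpins as exchangeable. Leaving out scr control replicate 1 gave 3 genes higher and 1 lower, leaving out replicate 3 gave 5 and 1, and leaving out replicate 2 also gave 1 lower. Calls over all genes also dropped, from 1584 higher and 1083 lower to 469 and 174 without replicate 1. They were 686 and 318 without replicate 2, and 841 and 445 without replicate 3. FAT3, PCDH7, PCDHGC3 and PCDHB11 kept their call under every alternative run apart from a limit on fold change. PCDH7 and PCDHGC3 did not reach that limit, a log2 fold change of 1. PCDH19 and PCDHB14, which did not pass here, were higher by DESeq2 (log2 1.58, adjusted p = 0.0270, and log2 0.74, adjusted p = 0.0437), without the filter (edgeR adjusted p = 0.0390 and 0.0282) and as the mean of both hairpins in the fit of 3 groups (adjusted p = 0.0336 and 0.0130). PCDHB14 also passed without shMPZL3 #2 replicate 2 (adjusted p = 0.0265), and PCDH9 was lower as the mean of both hairpins (log2 −0.90, adjusted p = 0.00508).

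With shMPZL3 #1 alone, 21 of the 52 genes rose and 4 fell, where 16.8% of all genes rose and 15.3% fell. With shMPZL3 #2 alone, 9 rose and 4 fell, beside 9.36% and 5.8% of all genes. The median log2 fold change of the 52 was 0.74 with shMPZL3 #1 and 0.18 with shMPZL3 #2, against 0.009 and 0.003 over all genes. Without the 12 genes low in scr control, 17 of 40 rose and 4 fell with shMPZL3 #1 (median 0.59), and 7 rose and 4 fell with shMPZL3 #2 (median 0.087). PCDH1, PCDH7, PCDHAC2, PCDHB2, PCDHB11, PCDHGB5 and PCDHGC3 passed the test upward with each hairpin, and FAT3 and CELSR1 downward with each. Without shMPZL3 #2 replicate 3 the count of genes that rose with that hairpin was 4, and without shMPZL3 #1 replicate 3 the count that fell with shMPZL3 #1 was 2. Over all genes, those that rose with shMPZL3 #2 went from 1585 to 965 in the former setting. Those that fell with shMPZL3 #1 went from 2585 to 1715 in the latter.

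The clusters differed in size of change. Summed over its 15 genes, the alpha cluster had 17.3, 28.3 and 12.4 normalized counts in the scr control libraries, 70.5, 137 and 192 with shMPZL3 #1, and 49.6, 53.8 and 43.6 with shMPZL3 #2. Every knockdown library lay above every control library, and the shMPZL3 #1 libraries above those of shMPZL3 #2. The ratio to the control mean was 6.89 with shMPZL3 #1 and 2.54 with shMPZL3 #2. The beta cluster summed to 726, 767 and 715 in scr control, to 1373, 1722 and 1914 with shMPZL3 #1 and to 916, 953 and 1029 with shMPZL3 #2, ratios of 2.27 and 1.31. The gamma cluster summed to 981, 994 and 1028 in scr control, to 1539.7, 1752 and 1894 with shMPZL3 #1 and to 1348, 1262 and 1405 with shMPZL3 #2, ratios of 1.73 and 1.34. For beta and gamma too, all 9 libraries separated by group in the order scr control, shMPZL3 #2, shMPZL3 #1.

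**Figure D2:**
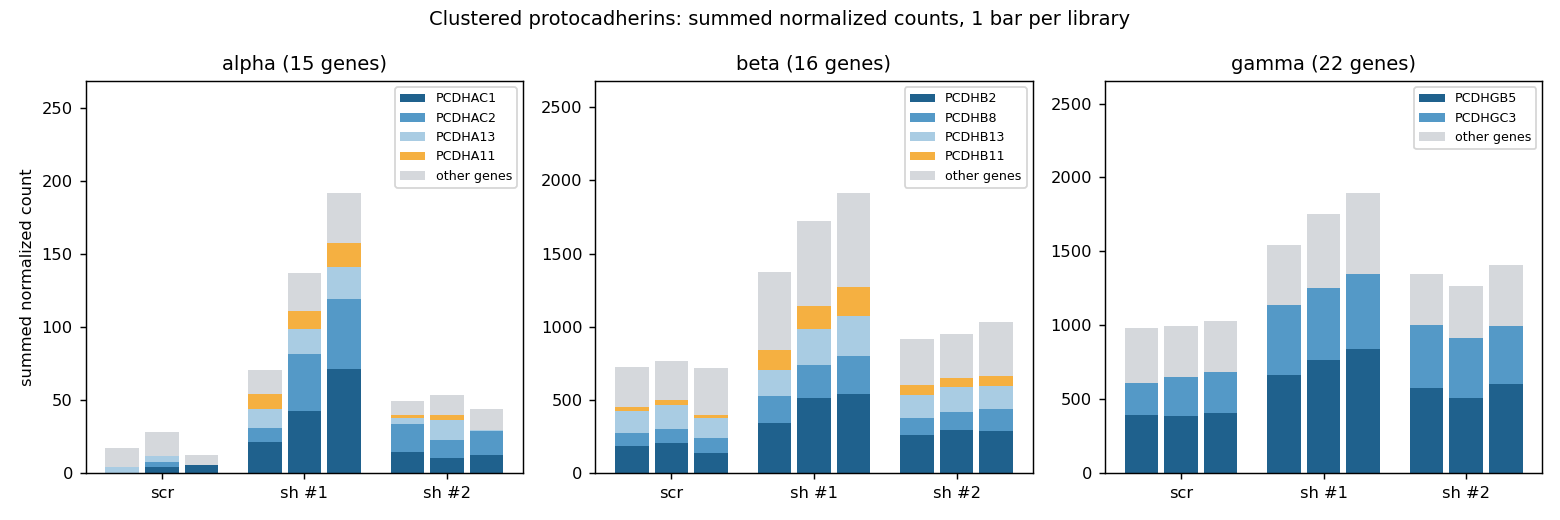
Summed normalized counts of the alpha, beta and gamma genes, 1 bar for each of the 9 libraries, with the leading genes coloured and the rest in grey; the vertical scales differ between clusters. Alpha control bars reach 12.4 to 28.3 and shMPZL3 #1 bars 70.5 to 192, while beta and gamma control bars reach 715 to 767 and 981 to 1028.

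Per kilobase of own exon, gamma stood above beta and alpha in scr control, at 16.5 ± 0.342, 9.73 ± 0.364 and 0.317 ± 0.165 CPM per kb. By the deposited gene length the levels were 9.29, 8.89 and 0.143 CPM per kb in the same order. A few genes made up most of a cluster. PCDHGB5 and PCDHGC3, a C-type gene towards the constant-exon end of the cluster, held 43.8% ± 0.428 and 22.9% ± 2.78 of the gamma level in scr control. They held 48.2% ± 0.755 and 25.7% ± 2.07 with shMPZL3 #1, and 46.2% ± 1.46 and 27.9% ± 2.18 with shMPZL3 #2. PCDHB2 held 25.0% ± 4.65 of the beta level in the controls, 28.5% ± 2.52 under shMPZL3 #1 and 30.3% ± 1.72 under shMPZL3 #2, followed by PCDHB8 at 18.5% ± 2.07 in scr control. PCDHB11 reached 8.76% ± 0.653 of the beta level with shMPZL3 #1.

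In the alpha cluster the counts were few, so raw counts are given. PCDHAC1, a C-type gene at the constant-exon end of the cluster, had 0, 4 and 4 counts in the scr control libraries, 23, 43 and 75 with shMPZL3 #1 and 14, 10 and 16 with shMPZL3 #2. PCDHAC2, the other C-type gene, had 0, 4 and 0 counts in scr control, 11, 39 and 51 with shMPZL3 #1 and 19, 12 and 22 with shMPZL3 #2. For each of them no knockdown library overlapped a control library. The ratio of summed counts per effective library size was 14.2 for PCDHAC1 with shMPZL3 #1 (exact 95% interval 7.0 to 33.5, for counting error only) and 3.84 with shMPZL3 #2 (1.77 to 9.51). For PCDHAC2 it was 20.3 (7.69 to 76.0) and 10.2 (3.75 to 38.7). By edgeR, PCDHAC1 rose with shMPZL3 #1 (log2 fold change 3.79 ± 0.66 SE, adjusted p = 0.000417) and not past the threshold with shMPZL3 #2 (1.91 ± 0.72 SE, adjusted p = 0.0868). PCDHAC2 rose with shMPZL3 #1 (4.29 ± 0.83 SE, adjusted p = 0.000934) and with shMPZL3 #2 (3.29 ± 0.88 SE, adjusted p = 0.0178). In the grouped comparison PCDHAC1 (3.13 ± 0.87 SE, adjusted p = 0.0284) did not pass once any 1 control library was left out (0.0634 to 0.127). PCDHAC2 (3.88 ± 0.89 SE, adjusted p = 0.0122) did not pass once scr control replicate 1 (0.0724) or 3 (0.0515) was left out, nor did its shMPZL3 #2 value (0.0747 and 0.0627). Leaving out scr control replicate 2, which holds all of its control counts, moved the log2 fold change of PCDHAC2 to 7.59 grouped, 8.01 with shMPZL3 #1 and 6.99 with shMPZL3 #2, and the lowest values with 1 library left out were 3.41, 3.82 and 2.80. These fitted values rest on 8 and 4 control counts and depend on the prior count.

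PCDHA13, the last of the regular alpha genes, had 3, 4 and 0 counts in scr control, 14, 17 and 23 with shMPZL3 #1 and 4, 14 and 1 with shMPZL3 #2. It rose with shMPZL3 #1 (log2 fold change 2.61 ± 0.87 SE, adjusted p = 0.0309), a call that leaving out any 1 control library ended (adjusted p = 0.0590 to 0.0998), as did leaving out shMPZL3 #1 replicate 2 (0.0517) or replicate 3 (0.0920). With shMPZL3 #2 its libraries overlapped the controls. PCDHA12 had a log2 fold change of 1.41 ± 0.84 SE with shMPZL3 #1 (adjusted p = 0.219). PCDHA11, which did not pass the filter, had 0 counts in all 3 control libraries and 11, 13 and 18 with shMPZL3 #1. That is a ratio of 11.3 when the control group is given a floor of 3 counts, without the counting error of the knockdown counts. With shMPZL3 #2 it had 2, 3 and 0 counts, a ratio of 1.28 by the same floor. Since replicate 3 was at 0 like every control library, no rise is read from this. The 10 other alpha genes that did not pass had at most 29 counts each over all libraries.

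Of the 13 beta genes tested, 4 rose in the grouped comparison, 9 rose and 1 fell with shMPZL3 #1, and 2 rose with shMPZL3 #2. These are 30.8%, 69.2% and 15.4% upward, where 9.36%, 16.8% and 9.36% of all genes rose. The 9 include PCDHB7, a gene low in scr control whose direction is not counted as support. The gene that fell with shMPZL3 #1 is 7.7%, where 15.3% of all genes fell. PCDHB11 had 26.6, 31.1 and 20.6 normalized counts in scr control, 137, 155 and 199.6 with shMPZL3 #1 and 69.9, 60.9 and 71.4 with shMPZL3 #2. The 3 groups did not overlap. It rose 6.17-fold with shMPZL3 #1 (log2 2.63 ± 0.25 SE, adjusted p = 3.11e-06) and 2.54-fold with shMPZL3 #2 (1.35 ± 0.25 SE, adjusted p = 0.00165). PCDHB2, the most abundant beta gene per kb, had 186, 205 and 135 normalized counts in scr control, 341, 509.7 and 536 with shMPZL3 #1 and 259, 296 and 289 with shMPZL3 #2. Again the groups stood apart, with shMPZL3 #2 between the others. It rose 2.62-fold (log2 1.39 ± 0.19 SE, adjusted p = 4.91e-05) and 1.60-fold (0.68 ± 0.19 SE, adjusted p = 0.0218). The shMPZL3 #2 value did not pass when scr control replicate 1 (adjusted p = 0.0560), scr control replicate 3 (0.111) or shMPZL3 #2 replicate 3 (0.0727) was omitted, nor the grouped value (adjusted p = 0.0136) when scr control replicate 1 (0.0671) or 3 (0.0729) was.

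PCDHB8 had 83.8, 92.4 and 103 normalized counts in scr control, 181, 226 and 266 with shMPZL3 #1 and 116, 119.7 and 149.6 with shMPZL3 #2. PCDHB9 had 16, 21.7 and 12.4, then 38.4, 43.7 and 87.0, then 30.4, 26.4 and 36.1 in the same order of groups. For both genes the knockdown libraries all lay above the controls. PCDHB8 rose with shMPZL3 #1 (log2 fold change 1.27 ± 0.19 SE, adjusted p = 0.000143) and PCDHB9 likewise (1.72 ± 0.39 SE, adjusted p = 0.00298). With shMPZL3 #2 their log2 fold changes were 0.47 ± 0.20 SE (adjusted p = 0.118) and 0.87 ± 0.40 SE (adjusted p = 0.160). Their grouped calls (adjusted p = 0.0349 and 0.0429) were each lost when any 1 control or shMPZL3 #1 library was left out (adjusted p = 0.0502 to 0.157 for PCDHB8 and 0.0567 to 0.160 for PCDHB9). PCDHB genes share stretches with near-identical copies, so their counts are uncertain where reads could fit several genes. Of all 75-base words in its transcripts, 38.8% for PCDHB8, 25.2% for PCDHB2, 20.1% for PCDHB9 and 10.3% for PCDHB11 also occurred in transcripts of other genes.

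Further beta genes passed the test with shMPZL3 #1 and not with shMPZL3 #2. PCDHB6 had 26.6, 30.2 and 26.1 normalized counts in scr control, 64.1, 82.5 and 76.6 with shMPZL3 #1 and 13.2, 23.3 and 24.1 with shMPZL3 #2. Its shMPZL3 #1 libraries lay above, and its shMPZL3 #2 libraries below, those of scr control, with log2 fold changes of 1.42 ± 0.31 SE (adjusted p = 0.00206) and −0.45 ± 0.33 SE (adjusted p = 0.399). PCDHB16 rose by 1.19 ± 0.28 SE (adjusted p = 0.00423), PCDHB14 by 1.08 ± 0.22 SE (adjusted p = 0.00113) and PCDHB13 by 0.60 ± 0.18 SE (adjusted p = 0.0160) on the log2 scale. PCDHB7, at 8, 0 and 2 raw counts in scr control, had 18, 14 and 31 with shMPZL3 #1 (log2 fold change 2.23 ± 0.81 SE, adjusted p = 0.0430) and 3, 1 and 6 with shMPZL3 #2. PCDHB15 went the other way. It had 16, 20.8 and 23.4 normalized counts in scr control, 0.915, 9.94 and 1.89 with shMPZL3 #1 and 24.3, 6.09 and 23.3 with shMPZL3 #2, and fell with shMPZL3 #1 (log2 fold change −2.23 ± 0.72 SE, adjusted p = 0.0257). PCDHB7 and PCDHB15 did not pass when scr control replicate 2 or 3 or shMPZL3 #1 replicate 1 or 3 was omitted (adjusted p = 0.0570 to 0.160 and 0.0640 to 0.101), and PCDHB13 when replicate 3 of either group was (0.0698 and 0.0831). The shMPZL3 #1 value of PCDHB7 was 3.97 without scr control replicate 1 and 1.54 without scr control replicate 2, and that of PCDHB15 was −3.73 without shMPZL3 #1 replicate 2.

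**Figure D3:**
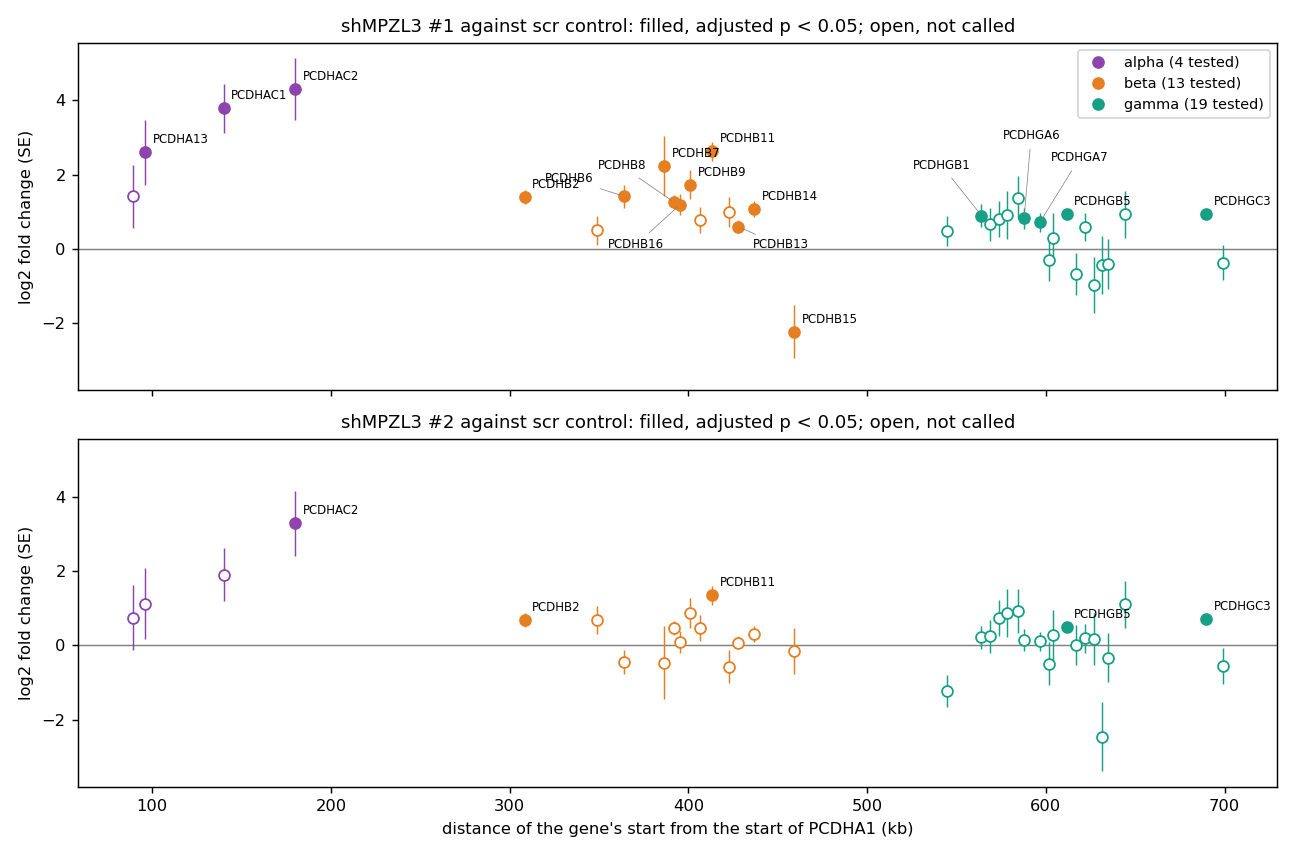
Log2 fold change with its SE against scr control of the 36 clustered genes that passed the filter, by distance of each gene's start from that of PCDHA1 in kb; filled points passed the test. With shMPZL3 #1, 17 filled points lie above 0 and 1, PCDHB15, below; with shMPZL3 #2, 5 lie above and 0 below.

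Of the 36 clustered genes tested, 8 rose and 0 fell in the grouped comparison (median log2 fold change 0.68). With shMPZL3 #1, 17 rose and 1 fell (median 0.91), and with shMPZL3 #2, 5 rose and 0 fell (median 0.27). The shares that rose were 22.2%, 47.2% and 13.9%, beside 9.36%, 16.8% and 9.36% of all genes, and 6.4%, 15.3% and 5.8% of all genes fell. Without the genes low in scr control, 6 of 27 rose and 0 fell in the grouped comparison (median 0.59), 13 and 1 with shMPZL3 #1 (median 0.81), and 4 and 0 with shMPZL3 #2 (median 0.19). Among the genes that did not pass the test, values lay on either side of 0 in the gamma cluster, where 6 of 19 were below 0 with shMPZL3 #1 and 5 with shMPZL3 #2.

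Among the 19 gamma genes tested, PCDHGB5 and PCDHGC3 passed the test in the grouped comparison. That is 10.5% upward, close to the 9.36% of all genes that rose. With shMPZL3 #1 the share was 26.3%, beside 16.8% of all genes, and with shMPZL3 #2 10.5%, beside 9.36%. PCDHGB5 had 392, 386 and 407 normalized counts in scr control, 662, 766 and 842 with shMPZL3 #1 and 577, 504 and 601 with shMPZL3 #2. PCDHGC3 had 214, 266 and 276, then 475, 483 and 503, then 423, 411 and 397. In both genes the 3 groups did not overlap and shMPZL3 #2 lay between the others. PCDHGB5 rose 1.92-fold with shMPZL3 #1 (log2 0.94 ± 0.12 SE, adjusted p = 4.21e-05) and 1.42-fold with shMPZL3 #2 (0.51 ± 0.12 SE, adjusted p = 0.0105). PCDHGC3 rose 1.93-fold (0.95 ± 0.13 SE, adjusted p = 6.40e-05) and 1.62-fold (0.70 ± 0.13 SE, adjusted p = 0.00157). The grouped value of PCDHGB5 did not pass with scr control replicate 1 omitted (adjusted p = 0.0547), nor its shMPZL3 #2 value with scr control replicate 2 (0.0591) or shMPZL3 #2 replicate 3 (0.0634) omitted.

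PCDHGB1, PCDHGA6 and PCDHGA7 rose with shMPZL3 #1, by 0.90 ± 0.31 SE (adjusted p = 0.0358), 0.82 ± 0.28 SE (adjusted p = 0.0355) and 0.71 ± 0.25 SE (adjusted p = 0.0394) on the log2 scale. Each of these calls was lost when any 1 control library, or shMPZL3 #1 replicate 2 or 3, was left out (adjusted p = 0.0548 to 0.142), and PCDHGA6 and PCDHGA7 did not pass without the filter on low counts either (adjusted p = 0.0694 and 0.0572). With shMPZL3 #2 their log2 fold changes were 0.21, 0.15 and 0.11.

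Among the delta-1 protocadherins, which carry a conserved cytoplasmic motif that binds protein phosphatase 1, PCDH7 and PCDH1 rose with each hairpin. PCDH7 had 455, 515 and 518 normalized counts in scr control, 759, 1032 and 1148 with shMPZL3 #1 and 893, 1028 and 957 with shMPZL3 #2. All knockdown libraries lay above all controls, while the 2 hairpins overlapped. It rose 1.97-fold (log2 0.98 ± 0.14 SE, adjusted p = 7.20e-05) and 1.93-fold (0.95 ± 0.14 SE, adjusted p = 0.000164). PCDH1, a protocadherin of epithelial junctions, had 758, 777 and 840.0 normalized counts in scr control, 1299, 1319 and 1794 with shMPZL3 #1 and 1137, 1056 and 1285 with shMPZL3 #2. The 3 groups did not overlap. It rose 1.86-fold (log2 0.89 ± 0.13 SE, adjusted p = 8.23e-05) and 1.47-fold (0.55 ± 0.13 SE, adjusted p = 0.00721). The grouped value of PCDH1 did not pass with scr control replicate 1 omitted (adjusted p = 0.0533), nor its shMPZL3 #2 value with shMPZL3 #2 replicate 3 omitted (0.0526).

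PCDH9 fell with shMPZL3 #2. It had 97.1, 96.2 and 86.6 normalized counts in scr control, 76.9, 102 and 68.1 with shMPZL3 #1 and 37.5, 31.4 and 22.5 with shMPZL3 #2. The shMPZL3 #2 libraries stood below all others, and the shMPZL3 #1 libraries overlapped the controls. The log2 fold change was −1.63 ± 0.26 SE with shMPZL3 #2 (adjusted p = 0.000471) and −0.18 ± 0.24 SE with shMPZL3 #1 (adjusted p = 0.615). PCDH19, a delta-2 protocadherin on the X chromosome whose loss causes a form of epilepsy, had 6.65, 15.1 and 2.75 normalized counts in scr control, 13.7, 15.9 and 29.3 with shMPZL3 #1 and 21.3, 29.4 and 42.8 with shMPZL3 #2. It rose with shMPZL3 #2 (log2 fold change 1.85 ± 0.55 SE, adjusted p = 0.0304), which did not pass when scr control replicate 1 (0.114), scr control replicate 3 (0.114) or shMPZL3 #2 replicate 3 (0.145) was omitted. PCDH10 and PCDH18, the other delta-2 genes tested, and PCDH12, a protocadherin of endothelium, passed no test. Their grouped log2 fold changes were 0.64 ± 0.60, −0.25 ± 0.29 and −0.35 ± 0.35 SE.

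**Figure D4:**
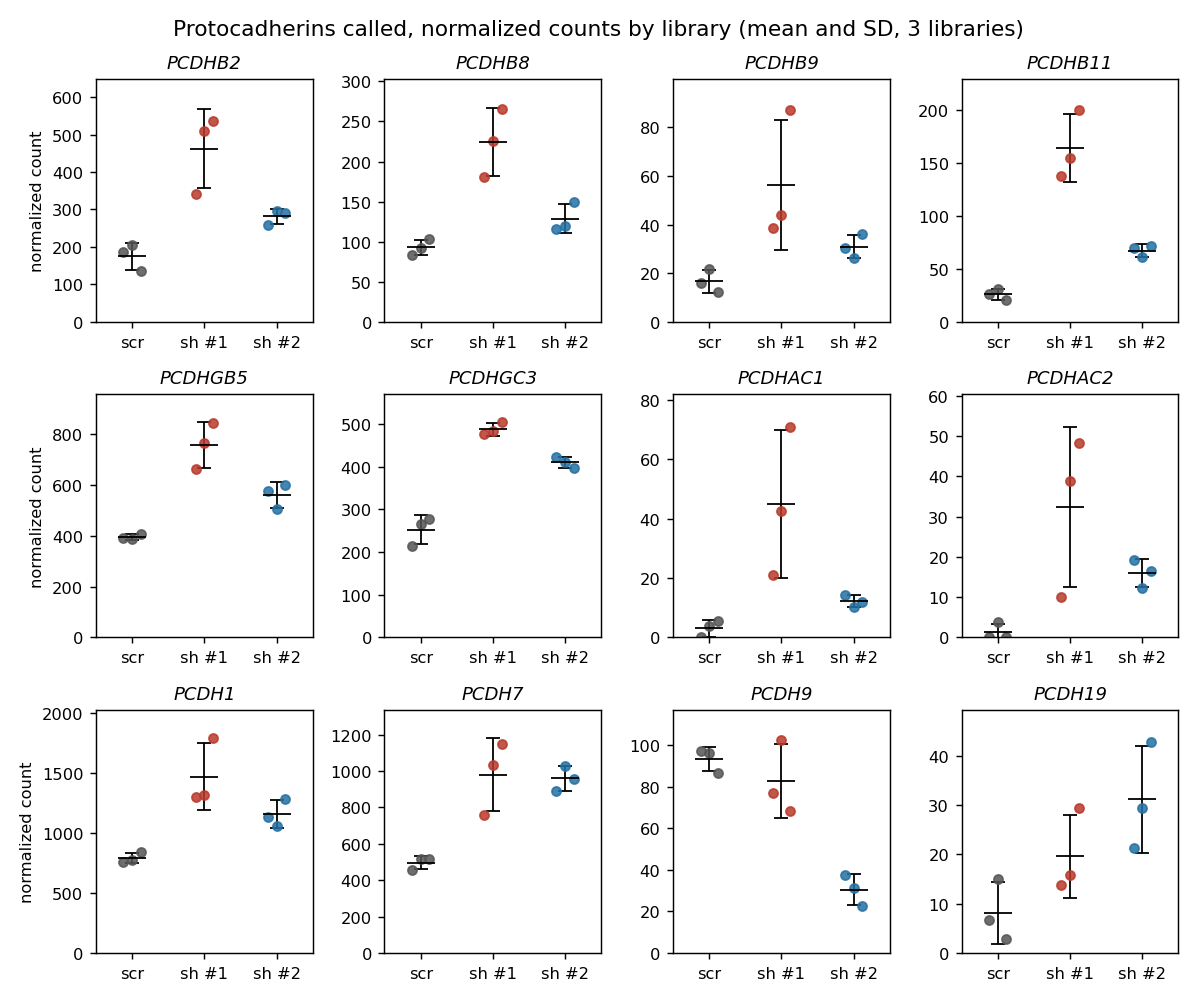
Normalized counts of 12 protocadherins in each library, with group means and SD; each vertical axis starts at 0 and has its own scale. PCDHB11 and PCDHGC3 show 3 separate groups, PCDH7 has overlapping hairpin groups above the controls, and PCDH9 is lowest with shMPZL3 #2, at 22.5 to 37.5.

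FAT3, an atypical cadherin known from neuronal morphology, fell with each hairpin. Its normalized counts were 2194, 2115 and 1873 in scr control, 728, 804 and 471 with shMPZL3 #1 and 725, 828 and 739 with shMPZL3 #2. Every knockdown library lay below every control library, and the hairpins overlapped. The log2 fold change was −1.63 ± 0.15 SE with shMPZL3 #1 (adjusted p = 2.99e-06) and −1.43 ± 0.15 SE with shMPZL3 #2 (adjusted p = 8.43e-06).

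FAT2, an epithelial member of the family involved in collective cell migration, moved in opposite directions. It had 9509.7, 9760.4 and 9804 normalized counts in scr control, 10626, 13758 and 14365 with shMPZL3 #1 and 6170.1, 5766 and 5959 with shMPZL3 #2. All 3 groups stood apart, with scr control in the middle. FAT2 rose by 0.41 ± 0.11 SE on the log2 scale with shMPZL3 #1 (adjusted p = 0.00741), while its log2 fold change with shMPZL3 #2 was −0.70 ± 0.11 SE (adjusted p = 0.000306). In the grouped comparison its log2 fold change was −0.04 ± 0.28 SE (adjusted p = 0.945).

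FAT4, the receptor of the Dachsous proteins, had 485, 495 and 445 normalized counts in scr control, 518, 831 and 675 with shMPZL3 #1 and 436, 502 and 491 with shMPZL3 #2. It rose with shMPZL3 #1 (log2 fold change 0.50 ± 0.15 SE, adjusted p = 0.0157), which did not pass when scr control replicate 3 (0.0630) or shMPZL3 #1 replicate 2 (0.0898) was omitted. FAT1, a large cadherin frequently mutated in carcinomas, had group means of 3427 ± 347, 3562 ± 641 and 2769 ± 135 normalized counts and passed no test against scr control (adjusted p = 0.765 with shMPZL3 #1 and 0.0985 with shMPZL3 #2). The FAT4 ligands were low. DCHS1 had 13.4 ± 7.97, 15.3 ± 7.79 and 17.8 ± 4.44 normalized counts, and DCHS2 52.3 ± 8.75, 55.8 ± 2.48 and 54.7 ± 7.30. Their groups overlapped throughout, with grouped log2 fold changes of 0.31 ± 0.47 SE (adjusted p = 0.70) and 0.07 ± 0.22 SE (adjusted p = 0.855).

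CELSR1, a core planar polarity cadherin of epithelia, had 8930.0, 8457 and 8392 normalized counts in scr control, 7354, 6586 and 6473 with shMPZL3 #1 and 7049, 5762 and 6638 with shMPZL3 #2. The knockdown libraries all lay below the controls. It fell by 0.34 ± 0.10 SE on the log2 scale with shMPZL3 #1 (adjusted p = 0.0156) and by 0.41 ± 0.10 SE with shMPZL3 #2 (adjusted p = 0.0104). The grouped call was lost when any 1 control library was left out (adjusted p = 0.0594 to 0.109), and the shMPZL3 #1 value did not pass when scr control replicate 1 (0.0633) or shMPZL3 #1 replicate 3 (0.0550) was omitted. CELSR2 had 2939 ± 87.7, 3261 ± 162 and 2898 ± 229 normalized counts and passed no test (grouped log2 fold change 0.07 ± 0.10 SE, adjusted p = 0.674).

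CELSR3, known for axon guidance, moved in opposite directions with the hairpins, the reverse of FAT2. It had 104, 101 and 100.4 normalized counts in scr control, 43.0, 57.6 and 61.5 with shMPZL3 #1 and 155, 172 and 204 with shMPZL3 #2. The groups did not overlap. The log2 fold change was −0.91 ± 0.21 SE with shMPZL3 #1 (adjusted p = 0.00325) and 0.80 ± 0.20 SE with shMPZL3 #2 (adjusted p = 0.0101). The latter call was lost without shMPZL3 #2 replicate 3 (adjusted p = 0.0731).

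**Figure D5:**
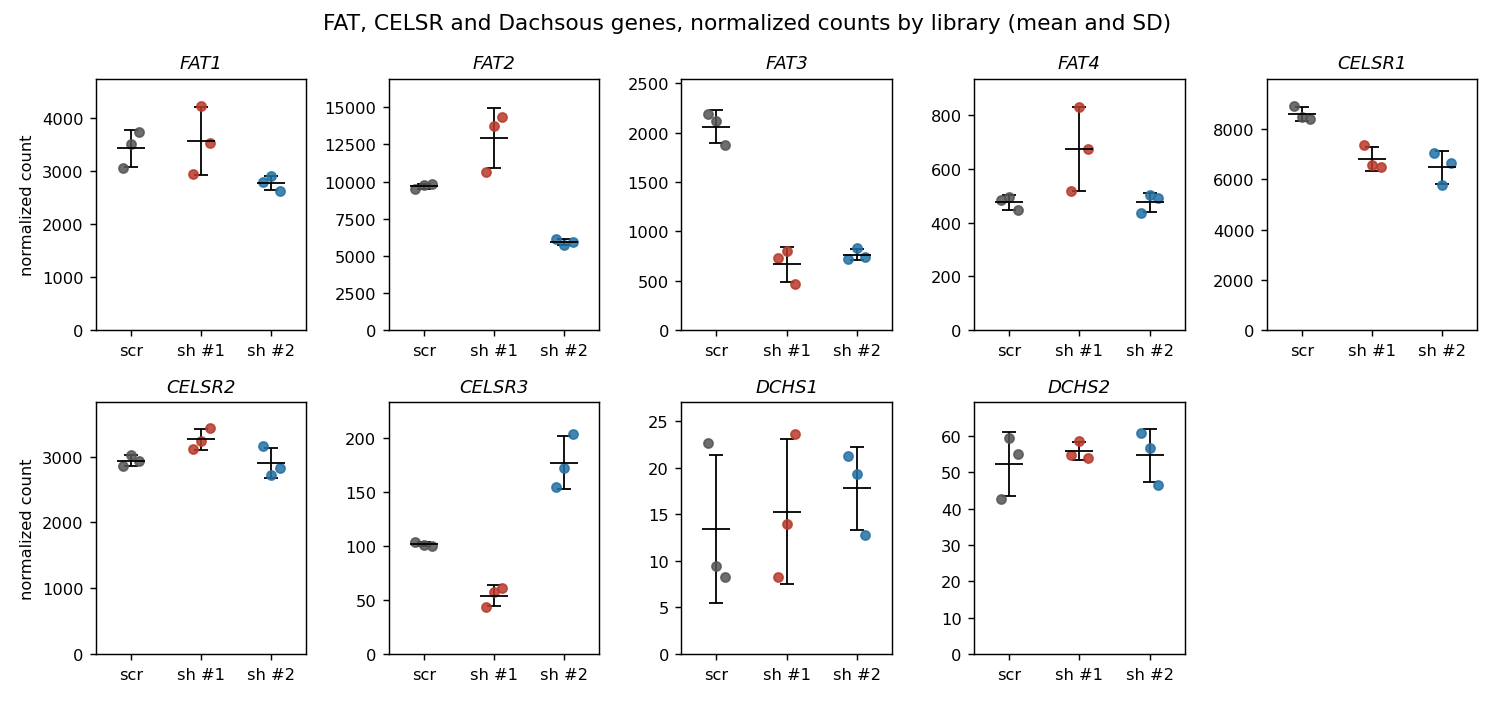
Normalized counts of the FAT, CELSR and Dachsous genes in each library, with group means and SD; each vertical axis starts at 0 and has its own scale. FAT3 is at 471 to 828 in knockdown libraries against 1873 to 2194 in scr control, and FAT2 and CELSR3 have their hairpin groups on opposite sides of the controls.

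The hairpins were also compared with each other. Of the 52 genes 1 was higher and 14 were lower with shMPZL3 #2 than with shMPZL3 #1, where 7.56% of all genes were higher and 7.56% lower. Without the 12 genes low in scr control, 1 of 40 was higher and 12 were lower. The gene that was higher was CELSR3, by 1.71 ± 0.20 SE on the log2 scale (adjusted p = 4.21e-05). The 14 included 8 beta genes, PCDHB2, PCDHB6, PCDHB7, PCDHB8, PCDHB11, PCDHB12, PCDHB14 and PCDHB16, beside PCDHAC1, PCDHGA1, PCDHGB5, PCDH9, FAT2 and FAT4. The log2 difference, shMPZL3 #2 minus shMPZL3 #1, was −1.28 ± 0.22 SE for PCDHB11 (adjusted p = 0.000864), −1.86 ± 0.31 SE for PCDHB6 (adjusted p = 0.000670), −1.11 ± 0.11 SE for FAT2 (adjusted p = 8.14e-06) and −1.45 ± 0.26 SE for PCDH9 (adjusted p = 0.00147). PCDH7 (−0.03 ± 0.13 SE), PCDHGC3 (−0.25 ± 0.13 SE) and FAT3 (0.19 ± 0.15 SE) did not pass the test of the difference. Leaving out shMPZL3 #2 replicate 1 gave 6 lower genes and leaving out shMPZL3 #1 replicate 3 gave 7, and leaving out replicate 2 of either hairpin gave 2 higher genes. Over all genes the lower calls went from 1280 to 841 without shMPZL3 #2 replicate 1 and to 801 without shMPZL3 #1 replicate 3. Among the 15 differences, those of PCDHB6, PCDHB8, PCDHB11, PCDHGA1, PCDH9, FAT2 and CELSR3 passed under every alternative that tested them, apart from the fold limit. PCDHB8 (log2 −0.80) did not reach that limit. PCDHGA1, with 6 counts in shMPZL3 #2 replicate 2, was not tested where 10 counts in every library were required.

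Replicates of equal number deviated together between the hairpins, and with the replicate number as a block 2 genes were higher and 17 lower. Over all genes the block moved the counts between the hairpins from 1279 higher and 1280 lower to 2015 and 1808. The genes whose call the block changed were FAT1 (log2 difference −0.36, adjusted p = 0.0520, and −0.35 with adjusted p = 0.0119 blocked), PCDH1 (0.0741 and 0.0138 blocked), PCDHB13 (0.0514 and 0.0280 blocked) and PCDHB15 (0.0583 and 0.0468 blocked).

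Genes of the pathways in which these cadherins act are given as whole lists, to be read beside the 9.36% of all genes that rose and 6.4% that fell in the grouped comparison. Of 20 FAT and Dachsous partners and Hippo kinase cassette genes, 1 rose and 0 fell in the grouped comparison (median log2 fold change −0.016). The count that rose was 2 without shMPZL3 #1 replicate 2, and the count that fell was 1 without that library and 2 without shMPZL3 #2 replicate 2. It was NF2, encoding the Hippo activator merlin, at 2784 ± 93.7 normalized counts in scr control and 4596 ± 651 in the 6 knockdown libraries (log2 0.72 ± 0.12 SE, adjusted p = 0.00267). With shMPZL3 #1, 3 rose and 2 fell, and with shMPZL3 #2, 2 rose and 1 fell. Of 14 core planar polarity genes tested among 15, 2 rose and 1 fell in the grouped comparison (median 0.037). VANGL2, a membrane partner of the CELSR proteins, fell from 359 ± 47.4 to 244 ± 48.2 normalized counts (log2 −0.55 ± 0.17 SE, adjusted p = 0.0402), and ROR2 and PRICKLE3 rose (log2 1.07 ± 0.33 and 0.40 ± 0.13 SE). With shMPZL3 #1, 5 rose and 2 fell, and with shMPZL3 #2, 0 rose and 1 fell, PRICKLE2. The grouped counts were 0 and 0 with any 1 control library, shMPZL3 #1 replicate 3 or shMPZL3 #2 replicate 1 left out, and 1 and 0 with shMPZL3 #1 replicate 1 or 2 left out. With shMPZL3 #2 replicate 2 or 3 left out 1 rose and 1 fell.

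Of 17 regulators of clustered protocadherin promoters, 0 rose and 7 fell in the grouped comparison (median log2 fold change −0.225), where 6.4% of all genes fell. They were CTCF, the cohesin genes SMC1A, SMC3, RAD21, STAG1 and STAG2, and SMCHD1, a repressor of clustered protocadherin promoters. CTCF averaged 1237 ± 31.0 normalized counts in the controls, 858 ± 41.6 under shMPZL3 #1 and 1063 ± 40.6 under shMPZL3 #2, with log2 fold changes of −0.53 ± 0.09 SE (adjusted p = 0.000505) and −0.22 ± 0.09 SE (adjusted p = 0.129). STAG1 had 1572 ± 53.1, 917 ± 139.9 and 1080.2 ± 83.7 normalized counts and fell with each hairpin (log2 −0.78 ± 0.11 and −0.54 ± 0.11 SE). DNMT3B, a DNA methyltransferase, fell with shMPZL3 #1 (log2 −0.43 ± 0.12 SE, adjusted p = 0.00973) and rose with shMPZL3 #2 (0.50 ± 0.12 SE, adjusted p = 0.00750). Over the list 11 fell with shMPZL3 #1 and 0 rose, and 5 fell and 1 rose with shMPZL3 #2, where 15.3% and 5.8% of all genes fell. The grouped count was 1 without scr control replicate 1 or 2, and 4 without scr control replicate 3 or shMPZL3 #1 replicate 1 or 3.

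Of 13 cytoplasmic effectors of protocadherins, 1 rose and 0 fell in the grouped comparison (median 0.20). It was PTK2B, encoding the kinase PYK2, which protocadherin tails bind, at 231 ± 89.0 normalized counts in scr control and 407 ± 73.3 in the 6 knockdown libraries (log2 0.81 ± 0.23 SE, adjusted p = 0.0301). With shMPZL3 #1, 4 rose and 1 fell, and with shMPZL3 #2, 1 rose and 1 fell. Without scr control replicate 1 or 2 the grouped count that rose was 0, and without shMPZL3 #2 replicate 2 the count that fell was 1. Of 8 classical cadherins and catenins, 1 rose and 1 fell (median 0.169). CDH6 fell from 11791 ± 1137 to 6857 ± 535 normalized counts (log2 −0.78 ± 0.10 SE, adjusted p = 0.000474) and CDH3 rose from 2356 ± 124 to 3350.3 ± 465 (log2 0.51 ± 0.12 SE, adjusted p = 0.0142). With shMPZL3 #1, 3 rose and 1 fell, and with shMPZL3 #2, 1 rose and 1 fell. The grouped count that rose was 0 without any 1 control library, 2 without shMPZL3 #1 replicate 2 or shMPZL3 #2 replicate 1, and 3 without shMPZL3 #2 replicate 2.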

How the data were processed

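The authors extracted RNA from transduced OVCAR4 cells, sequenced non-directional libraries from poly-A RNA and deposited raw counts per gene. Per the submitters' processing notes the tools were HISAT2 2.0.5 and featureCounts 1.5.0-p3 on hg38. The counting settings are not given in the sources used here, so how reads shared by genes were treated is unknown. Gene identifiers, positions and names matched GENCODE 29 for all 58735 rows. The deposited counts were analysed with edgeR 4.0.16 (R 4.3.3): filterByExpr with a minimum count of 10, TMM scaling and the quasi-likelihood test, with Benjamini-Hochberg adjustment over 16928 genes and a threshold of 0.05. The grouped comparison set 6 knockdown against 3 control libraries as the study did, and the hairpins were compared in a fit of 3 groups. DESeq2 1.42.0, which the authors used, was an alternative.

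Normalized counts are CPM on TMM-scaled library sizes, rescaled to the mean library size. Log2 CPM used a prior count of 2. Levels between genes were divided by the exon length shared with no other gene in GENCODE 29. The test was checked on simulated counts. Replicates of a group differed by more than sampling noise. The p-values cover the spread between these libraries. Intervals cover counting error only, and floors cover it for the control group alone. The genes, lists, tests and alternatives were chosen with earlier results of these data known. Named were all FAT, Dachsous and CELSR genes that passed the filter, all genes called against scr control, and the 3 most abundant per kb of each subgroup. PCDHB12 and PCDHGA1 were added after their values were seen. Deviations of equally numbered libraries correlated at 0.386 to 0.722 between the hairpins, and the pairing was taken from this, since the labels do not state it. The OVCA433 libraries were not analysed here.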

Additional observations from a re-analysis of the deposited data

Results flagged for a closer look

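For 15 genes the effect of the hairpins differed by the edgeR test of shMPZL3 #2 against shMPZL3 #1 (Benjamini-Hochberg adjusted p under 0.05). CELSR3 was higher with shMPZL3 #2, by a log2 difference of 1.71. The log2 differences, shMPZL3 #2 minus shMPZL3 #1, were −1.11 for FAT2, −0.50 for FAT4 and −1.45 for PCDH9. In the beta cluster they were −0.71 for PCDHB2, −1.86 for PCDHB6, −2.70 for PCDHB7, −0.80 for PCDHB8, −1.28 for PCDHB11, −1.57 for PCDHB12, −0.77 for PCDHB14 and −1.09 for PCDHB16. In the other clusters they were −1.88 for PCDHAC1, −1.72 for PCDHGA1 and −0.43 for PCDHGB5. MPZL3 itself was lower with shMPZL3 #1, at 128 ± 12.9 normalized counts, than with shMPZL3 #2, at 312 ± 59.5, and whether its level has a part in these differences was not tested. PCDHB11, PCDHB8, PCDHGA1, PCDH9, PCDHB6, CELSR3 and FAT2 kept this difference under every alternative that tested them, apart from the fold limit. PCDHB8 did not reach that limit, and PCDHGA1 was not tested where 10 counts in every library were required.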

How the results depend on the processing

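Of 1422 values recomputed for single genes under the alternatives, 1308 kept their direction and side of the threshold, 100 no longer passed, 8 newly passed and 6 changed sign. The 8 were all in the grouped comparison, since hairpin comparisons entered this tally only for genes that passed them. New passes there were not counted, such as FAT1 between the hairpins with the replicate block (edgeR adjusted p = 0.0119). The alternatives were the mean of both hairpins in the fit of 3 groups, DESeq2, RLE and upper-quartile scaling, and no filter. The rest were only genes with 10 counts or more in each library, only protein-coding genes, a replicate block, and leaving out each library. A gene that a stricter filter removed has no value in that setting. A fold limit was applied to the counts of calls alone, outside this tally. When calls also needed a log2 fold change of 1 or more in size, 5 of the genes were higher and 1 lower in the grouped comparison. There were 11 and 2 with shMPZL3 #1, 3 and 2 with shMPZL3 #2, and 1 and 9 between the hairpins. The share of all genes at this limit is not given here, so whether these counts are unusual cannot be read from them. Between the hairpins 2 were higher with DESeq2, without the filter or with the replicate block. Leaving out 1 library gave 3 to 11 higher and 1 to 2 lower (grouped), 14 to 21 and 2 to 4 (shMPZL3 #1), 4 to 9 and 4 to 5 (shMPZL3 #2), and 1 to 2 and 6 to 18 (between hairpins). Calls over all genes moved as well. In the grouped comparison 469 were higher without scr control replicate 1 and 1781 without shMPZL3 #2 replicate 2. With at least 10 counts in every library, 28 genes counted as expressed. For the lists in the grouped comparison, leaving out 1 library gave 1 to 2 higher and 0 to 2 lower Hippo and FAT partners, 0 to 1 and 0 to 1 planar polarity genes, 1 to 8 lower promoter regulators, 0 to 1 higher and 0 to 1 lower cytoplasmic effectors, and 0 to 3 higher classical cadherins. With the replicate block 1 planar polarity gene was higher and 0 lower, and 2 classical cadherins were higher; with DESeq2, 1 cytoplasmic effector was lower and 3 classical cadherins were higher. Divided by the deposited gene length, the alpha, beta and gamma clusters stood at 0.143, 8.89 and 9.29 CPM per kb. Leaving out the 12 genes low in scr control, and the alternatives for PCDHB12 and PCDHGA1, were chosen after seeing the data. The grouped log2 fold change of CELSR3 was −0.055 with the mean of both hairpins and −0.058 to 0.359 leaving out 1 library, that of DCHS2 −0.058 to 0.172 and that of FAT2 −0.197 to 0.070; none passed the test, and the cause was not tested. Deviations of equally numbered libraries of scr control and either hairpin correlated at −0.041 to 0.297. Those of unequal number correlated at −0.341 to 0.219 with shMPZL3 #1 and at −0.111 to 0.047 with shMPZL3 #2. Whether the number marks a pairing with the controls was not tested. With the number as a block the grouped call of PCDHB9 was not reached (edgeR adjusted p = 0.0695) and the other grouped calls of named genes stood. Depth limits the alpha genes most, with 9 to 30 counts for the whole cluster in a control library.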

Other observations

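The pseudogene PCDHB17P, a copy within the beta cluster, had 5, 6 and 12 counts in scr control, 26, 17 and 19 with shMPZL3 #1 and 14, 9 and 15 with shMPZL3 #2, and passed no test (edgeR adjusted p = 0.142 and 0.761). PCDHB18P had 7, 5 and 8 counts, then 12, 12 and 10, then 25, 4 and 9 (adjusted p = 0.697 and 0.643). PCDHB1, a beta gene below the filter, had 0 counts in all control libraries, 2, 9 and 6 with shMPZL3 #1 and 0, 2 and 3 with shMPZL3 #2. With a floor of 3 counts for the control group the ratio with shMPZL3 #1 was 4.56, without the counting error of the knockdown counts.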
